A study of Arabidopsis thaliana with 2 samples.

Results

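The genes described here encode proteins of the cytosolic small (40S) ribosomal subunit of Arabidopsis thaliana. They are 60 nuclear loci for 23 proteins, and each protein is encoded by several paralogous loci. The loci were taken from a fixed list of cytosolic 40S loci and matched by locus tag to probe sets that map to 1 gene. The rule uses no measured value, but the list was drawn up with earlier results of these data known. Of the 60 loci, 38 had such a probe set, and each of the 38 had 1, among 13356 genes in all with a probe set of their own. The remaining 22 were dropped from the comparison: 14 are read by 7 probe sets shared between loci, and for 8 no probe set is named in the annotation used.

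The RNA came from whole seedlings that were 2 weeks old. The wild type was Columbia-0, and OE-N6 is a transgenic line in the same background, made to overexpress AT4G16790, which the labels call NHRGP. Both grew at 22 °C on diluted Murashige and Skoog medium that held 2% sucrose, in cycles of 16 h light and 8 h dark at 100 µmol per m2 per s. Only 1 overexpressing line was measured, and the promoter that drives the transgene is not given in the sources used here. Each genotype has 1 Affymetrix ATH1 array, made from 6 µg of total RNA, so no difference below has a replicate check or a p-value, and precision is limited by the number of arrays.

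The 40S subunit is the part of the ribosome that binds mRNA and reads its codons. It consists of ribosomal RNA and a set of small proteins, and it is divided into a head and a body, between which the mRNA runs. In plants nearly every ribosomal protein is encoded by a small gene family whose members may all be transcribed, and these genes are among the most strongly transcribed in growing tissue. The universal names of the proteins (uS or eS) are given beside the family names. The protein of each locus follows the established Arabidopsis nomenclature, since the RefSeq gene table gives a symbol other than the locus for only 9 of the 60.

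Values are signal intensities on a linear scale as the MAS5 software of the array gives them, and a log2 ratio is the log2 of the signal in OE-N6 divided by that in the wild type. A gene was kept when its mean signal over both arrays was at least 192, the median of all probe sets other than controls. For all genes, signals under a floor of 111 were raised to it before the ratio was taken. The filter kept 37 of the 38 loci, which represent 20 of the 23 proteins, and 5862 of all 13356 genes. All 37 lay above the floor on both arrays. Probe sets bind their targets with unequal strength, so signals of different loci stand side by side below and their sizes are not ranked as transcript levels.

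Most 40S protein genes had somewhat higher signals on the OE-N6 array. Of the 37 kept genes, 36 had a log2 ratio above 0 and 1 below, while 46.8% of all 5862 genes lay above 0 and 53.2% below. The median log2 ratio of the 37 genes was 0.30, which is 1.23-fold, with quartiles of 0.20 and 0.46, and that of all genes was -0.02 with quartiles of -0.19 and 0.15. The SD across the 37 genes was 0.17, which describes how the genes differ and is no measurement error. The differences were small for single genes: 7 lay at or above a log2 ratio of 0.5, 26 between 0.1 and 0.5, and 4 at or under 0.1. At 1.5-fold, 2 of the 37 were higher, where 2.44% of all genes were, and 0 were lower, where 2.41% of all genes were. At 2-fold none of the 37 were higher or lower, where 0.546% of all genes were higher and 0.495% lower. The difference was thus spread over the group in small steps: 31 of the 37 lay above 0.15, the 75th percentile of all genes.

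**Figure D1:**
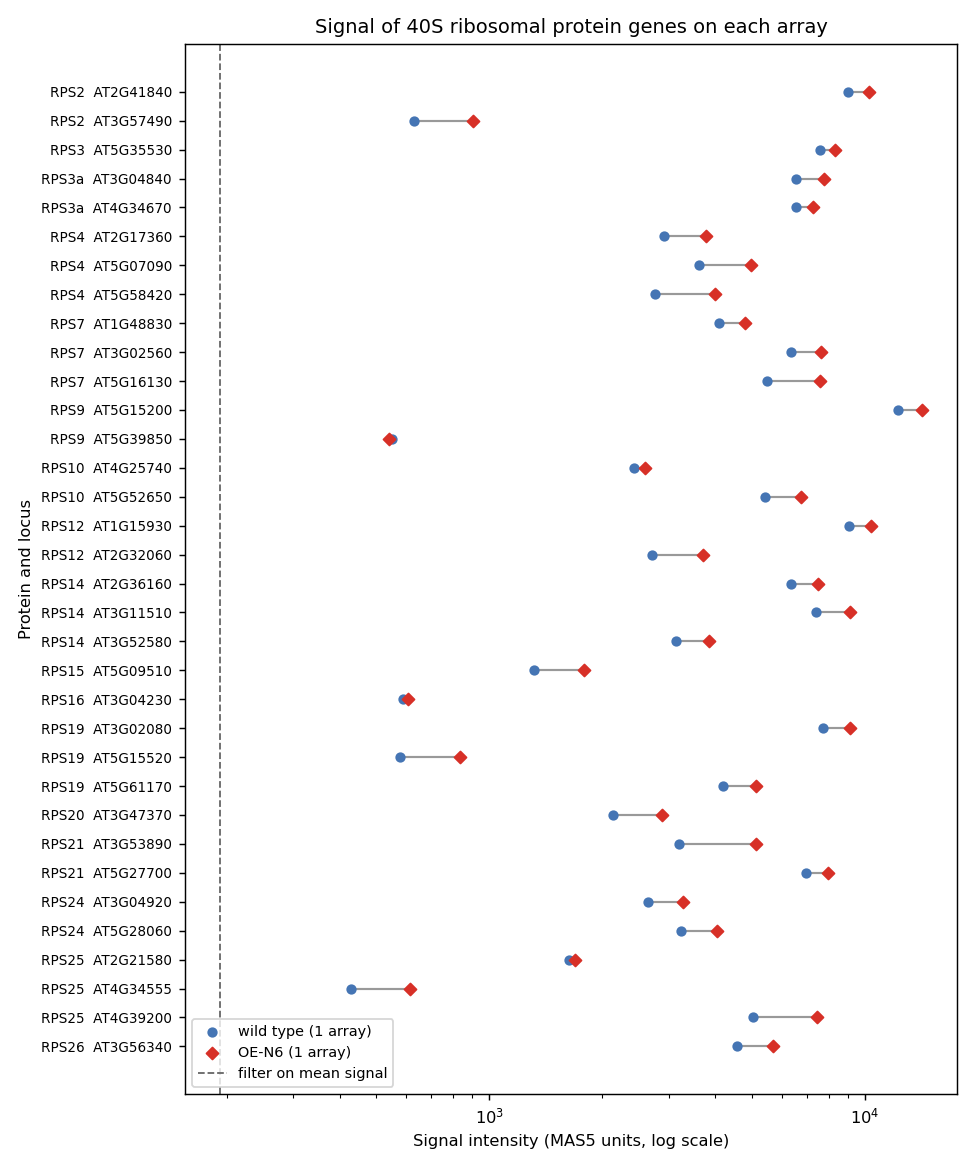
Signal intensity (log scale) of 34 loci with a probe set of their own, by protein; circles are the wild-type array, diamonds the OE-N6 array, and the dashed line is the filter on mean signal at 192. The diamond lies to the right of the circle for every locus drawn but AT5G39850 of RPS9.

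**Figure D2:**
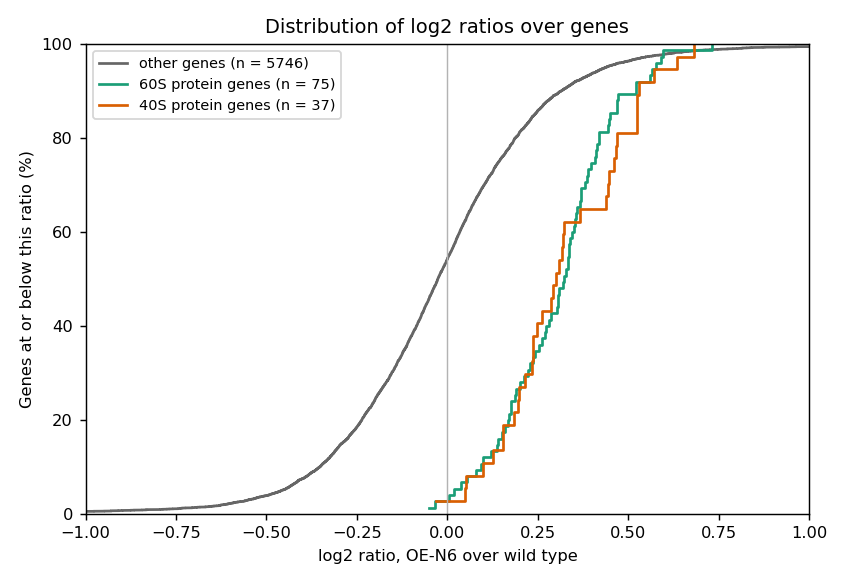
Cumulative share of genes (%) against the log2 ratio of OE-N6 over wild type, for 37 genes of 40S proteins, 75 genes of 60S proteins and 5746 other genes that passed the filter. The 40S curve has its median at 0.30 and the curve of the other genes at -0.03; ratios beyond the horizontal limits are not drawn.

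Proteins of the head are described first, beginning with those at the path of the mRNA. RPS3 (uS3) lines the channel where mRNA enters, and its single measured locus AT5G35530 went from a wild-type signal of 7605 to 8296 in OE-N6, a log2 ratio of 0.13. RPS10 (eS10) lies close to the same entry. AT5G52650 of this protein went from 5417 to 6764 (0.32) and AT4G25740 from 2430 to 2604 (0.10), so its paralogues differed by 0.22. RPS20 (uS10), a neighbour of these proteins in the head, was read at AT3G47370 with 2132 and 2889 (0.44).

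Proteins that reach toward the tRNA sites gave a wide spread. RPS15 (uS19), whose tail extends to the decoding site, had signals of 1315 and 1789 at AT5G09510 (0.44). RPS16 (uS9), whose tail touches the tRNA in the peptidyl site, was nearly equal on both arrays at AT3G04230, with 589 and 609 (0.05). RPS25 (eS25) is a head protein that in yeast and human cells is needed for initiation at certain internal ribosome entry sites. It had the widest spread among paralogues in the signals as deposited. AT4G39200 went from 5019 to 7452, a log2 ratio of 0.57, the third highest of the 37. AT4G34555 went from 429 to 616 (0.52). By contrast, AT2G21580 had 1631 and 1690 (0.05), so 1 of the 3 RPS25 loci was close to equal on both arrays while the other two were among the 7 highest of all 40S loci.

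Further head proteins sit on its outer side and beak. RPS19 (eS19), a protein that human cells need to mature small subunit rRNA, had 3 measured loci. AT5G15520 went from 579 to 836 (0.53), AT5G61170 from 4181 to 5118 (0.29) and AT3G02080 from 7753 to 9119 (0.23). All 3 were higher in OE-N6, with a range of 0.30. RPS12 (eS12), part of the beak, had 2715 and 3703 at AT2G32060 (0.45) and 9053 and 10362 at AT1G15930 (0.19).

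Of the body proteins, several line the entry and the decoding centre. RPS2 (uS5) lies at the mRNA entry; AT3G57490 had signals of 629 and 904 (0.52) and AT2G41840 of 8993 and 10220 (0.18). RPS9 (uS4), which works with uS5 at the entry and is known to affect decoding accuracy, held the only locus with a lower signal in OE-N6. That locus, AT5G39850, went from 553 to 541, a log2 ratio of -0.03. It lay at 0.002 under quantile scaling and at 0.01 under loess scaling, so its direction turned with the scaling. Its paralogue AT5G15200 had 12255 and 14207 (0.21).

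On the platform, where mRNA leaves the subunit, all measured loci were higher in OE-N6, as were 36 of the 37 kept genes. RPS14 (uS11) was the most even protein with 3 loci: AT3G11510 went from 7410 to 9119 (0.30), AT3G52580 from 3148 to 3838 (0.29) and AT2G36160 from 6359 to 7493 (0.24). RPS3a (eS1) had log2 ratios of 0.25 at AT3G04840 (6558 and 7779) and 0.15 at AT4G34670 (6552 and 7292). RPS26 (eS26), which contacts mRNA upstream of the start codon, was read at AT3G56340 with 4569 and 5685 (0.32).

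The other body proteins lie mostly on the solvent side and bind the rRNA. RPS21 (eS21), which yeast needs for late maturation of small subunit rRNA, held the highest ratio of all 37: AT3G53890 had signals of 3204 and 5134, a log2 ratio of 0.68 or 1.60-fold. The other RPS21 locus, AT5G27700, went from 6956 to 7973 (0.20). RPS4 (eS4) was high at all 3 loci, with AT5G58420 from 2766 to 3977 (0.52), AT5G07090 from 3620 to 4978 (0.46) and AT2G17360 from 2926 to 3769 (0.37). Each RPS4 locus thus lay above the 40S median of 0.30. RPS7 (eS7) had 1 locus above that median, AT5G16130 (5469 and 7570, 0.47), and a pair below it, AT3G02560 (6363 and 7627, 0.26) and AT1G48830 (4083 and 4807, 0.24).

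RPS24 (eS24) had the closest paralogues of any protein, AT5G28060 with 3231 and 4044 (0.32) and AT3G04920 with 2641 and 3273 (0.31). The 1 locus that did not pass the filter lay under the floor of 111 on both arrays, so no ratio is given for it. By position in the subunit, the 15 head genes had a median log2 ratio of 0.32 and the 22 body genes 0.29, and the quartiles of the head genes (0.16 and 0.49) enclose those of the body genes (0.22 and 0.44).

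Paralogues of 1 protein could be compared for 12 proteins, which hold 29 of the 37 genes. The range of log2 ratio among the paralogues ran from 0.01 in RPS24 to 0.52 in RPS25, with a median of 0.24 over the 12 proteins. RPS21 (0.48), RPS2 (0.34), RPS19 (0.30) and RPS12 (0.25) followed RPS25, and 3 proteins, RPS24, RPS14 and RPS3a, had ranges under 0.1. The median absolute difference was 0.18 over the 22 pairs of paralogues and 0.18 over the 644 pairs of loci from different proteins. Probe sets of 1 gene differed about as much, so these values cannot show whether paralogues have closer ratios. For scale, genes read by a pair of probe sets on these arrays differed between the pair by a median of 0.19 (41 genes). The 75th percentile was 0.38, and only RPS25 and RPS21 had ranges above it in the signals as deposited. Under quantile scaling RPS21 (0.08 and 0.63) had a wider range than RPS25 (0.05 to 0.55). RPS2 (0.11 and 0.55) and RPS19 (0.13 to 0.55) then also had ranges above 0.38. Loess scaling likewise put RPS2 (0.11 and 0.56) and RPS19 (0.17 to 0.57) above it. The 0.38 itself was not recomputed under either scaling. By definition some of the 41 genes also lie above their 75th percentile. A range over 3 loci, as in RPS25 and RPS19, also tends to exceed the difference of a pair. Ranges above 0.38 therefore cannot show that paralogues differ by more than probe sets of 1 gene do. In 11 of the 12 proteins the paralogues had the same order of signal on both arrays. The exception was RPS4, where AT2G17360 had the brighter signal of the pair with AT5G58420 in the wild type (2926 and 2766) and the dimmer in OE-N6 (3769 and 3977).

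**Figure D3:**
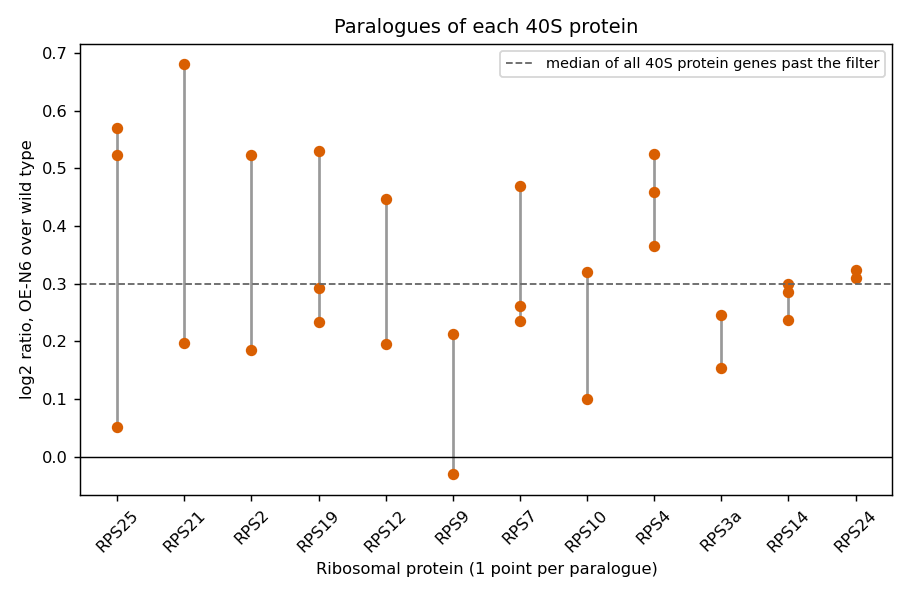
log2 ratio of OE-N6 over wild type for each paralogue (points) of the 12 proteins with at least 2 measured loci, ordered by the range among paralogues (vertical lines); the dashed line is the median of the 37 genes, 0.30. RPS25, at 0.52, has the widest range and RPS24, at 0.01, the narrowest, and the single point below 0 is AT5G39850 of RPS9.

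The loci without a probe set of their own could be read in part through shared probe sets, which cannot tell the loci apart. All 7 shared probe sets had higher signals in OE-N6, with a median log2 ratio of 0.30 and values from 0.17 to 0.36. The share above 0 over all probe sets of several genes was not computed. Over the 5862 kept genes it was 46.8%, and among the brightest genes outside the ribosomal lists, described below, 54.7%. For RPS23 (uS12), a protein of the decoding centre whose loci AT5G02960 and AT3G09680 share 1 probe set, the signals were 12019 and 15388 (0.36). The shared probe set of RPS26 (AT2G40590 and AT2G40510) gave 2716 and 3472 (0.35), and that of RPS3 (AT3G53870 and AT2G31610) gave 6601 and 8390 (0.35). RPS2 was read by a probe set for AT1G58380 and 3 further copies with 11248 and 13859 (0.30).

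Shared probe sets also read head proteins. RPS16 had 14338 and 17225 for AT5G18380 and AT2G09990 (0.26), against 0.05 at AT3G04230. RPS20 had 6950 and 7825 for AT5G62300 and AT3G45030 (0.17). With these probe sets 21 of the 23 proteins have a value. Among the 8 loci for which no probe set is named are AT4G31700 and AT5G10360 of RPS6 (eS6), the substrate of S6 kinase in the TOR growth pathway, AT1G04270 of RPS15 and AT5G41520 of RPS10, and the 8 are not analysed here.

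Most of the 40S genes had bright probe sets. When the 5862 genes were divided into 10 equal groups by mean signal, 28 of the 37 genes fell in the brightest. There, the 503 genes outside the ribosomal lists had a median log2 ratio of 0.02 with 54.7% above 0, while all 28 of the 40S genes were above 0 with a median of 0.29. Each of the 37 genes lay above the median of the other genes in its own signal group. Over the 37 genes the log2 ratio and the signal had a Spearman's rho of -0.36 and a Pearson's r of -0.22 (with log2 signal); these are genes on the same arrays and not independent replicates. The part of signal level in the shift was not tested. AT5G39850 and AT3G04230, with the lowest ratios, were dim members of the group, as were AT3G57490 and AT5G15520, with some of the highest.

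**Figure D4:**
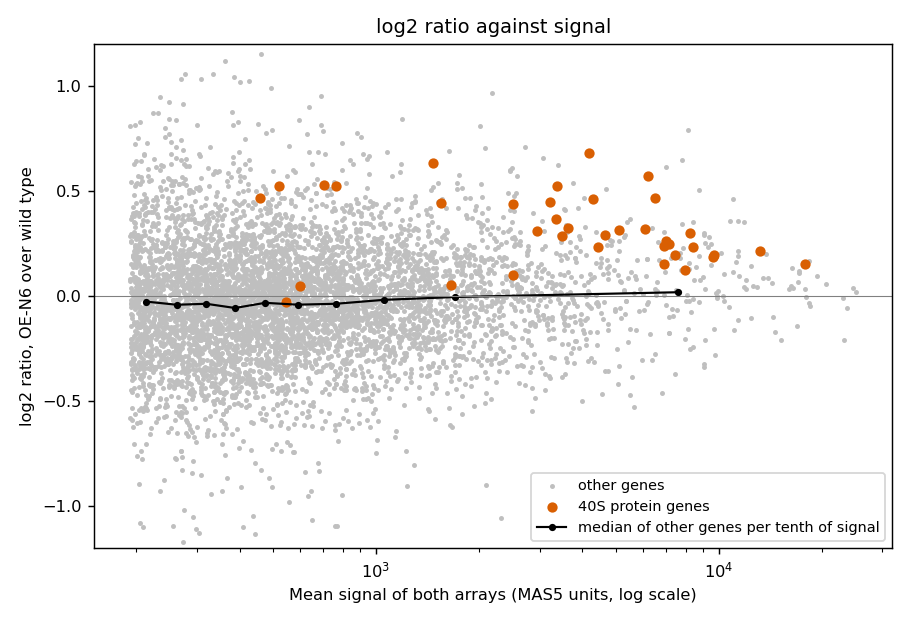
log2 ratio of OE-N6 over wild type against the mean signal of both arrays (log scale) for the 37 genes of 40S proteins (large points) and other genes (small points), with the median of the other genes in each of 10 signal groups (line). The line stays between -0.06 and 0.02, below all 37 large points; 37 other genes beyond the vertical limits are not drawn.

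Other genes of the translation machinery, listed by function, showed a like shift in part. Proteins of the large (60S) subunit had a median log2 ratio of 0.32 over 75 kept genes, of which 73 were above 0 and 2 below; 3 were at least 1.5-fold higher and 0 lower. The highest was AT2G20450 of RPL14, from 913 to 1517 (0.73), and the lowest AT2G37190 of RPL12, from 9758 to 9419 (-0.05). Both subunits thus had medians within 0.1 of each other; with 1 array per genotype the difference between them could not be tested. Of further 40S loci outside the 60, 10 of 37 had a probe set of their own and 4 passed the filter, all above 0, from AT2G45710 of RPS27 (945 and 1069, 0.18) to AT1G23410 of RPS27a (204 and 350, 0.78).

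Genes for ribosome assembly, which act in the nucleolus and cytoplasm to build both subunits, had 9 kept genes of 26 listed, 8 above 0 and 1 below, with a median of 0.29. The highest was NOB1 (AT5G41190), the endonuclease that trims the end of small subunit rRNA, from 731 to 1149 (0.65). The lowest was AT5G15550, a homologue of the large subunit assembly factor WDR12, from 552 to 461 (-0.26). Of 28 translation factor genes only 2 could be read, and they were nearly equal on both arrays: EIF4A-2, an RNA helicase of initiation, with 3960 and 4106 (0.05), and AT2G40290, for the alpha subunit of eIF2, with 1361 and 1405 (0.05). In the TOR and S6 kinase list the single readable gene, RAPTOR1, which recruits substrates to TOR kinase, had 605 and 424 (-0.51), opposite in direction to the ribosomal genes.

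Other measurements on the same arrays bear on these shifts. The overexpressed gene AT4G16790 went from 91.1 to 5171, at least 46.4-fold higher against the floor. MAS5 scaling set the mean without the extreme 2% of probe sets to 500 on both arrays, so a change shared by most transcripts could not be seen. The 22 probe sets for RNA spikes added at labelling averaged a log2 ratio of 0.10 (SD 0.18), and the 18 for hybridisation spikes 0.09 (SD 0.17). Ratios of 3' over 5' or middle probe sets of actin, GAPDH and ubiquitin reflect RNA quality. They exceeded the wild-type value in OE-N6 for 9 of 10 pairs, with a median log2 difference of 0.13. Some pairs share a 3' probe set and all come from these genes, so they are not separate observations. The differences ran from 0.12 to 0.39 for actin, 0.05 to 0.21 for ubiquitin and -0.20 to 0.10 for GAPDH. Of 4 listed genes of dividing cells, the 2 that could be read were higher in OE-N6, where 46.8% of all kept genes were. The dim AUR1, a mitotic kinase, had 260 and 296 (0.19), and PRL, a replication licensing factor, was at 0.23. Both ratios are near 0.19, the median difference between a pair of probe sets of 1 gene. The summed signals of AUR1 and PRL were 643 on the wild-type array and 745 on the other. Leaf genes (3 of 5 read) had 0.04 for PRK, 0.03 for RCA and -0.18 for LHCB4.2, with summed signals of 37094 and 37128. Root genes were read too, as both organs belong to a whole seedling. Of these (2 of 3 read), PYK10 had 15970 and 16513 (0.05) and the dim EXPA18 had 188 and 290 (0.62). Their summed signals of 16158 and 16802 are nearly all from PYK10. None of the 3 seed storage genes had a probe set of its own. The part of these measurements in the shift of the 40S genes was not tested, and in whole seedlings more cells that make many ribosomes and more of this RNA per cell cannot be told apart.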

How the data were processed

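The authors' deposited table holds 1 linear signal intensity for each probe set on each array. MAS5 is the tool that the submitters' processing notes name, with version and settings not given in the sources used here. There are 22810 probe sets, 64 of them controls. The platform annotation gives 13513 of them 1 gene, 503 several and leaves 8730 unnamed, and 13436 were found by gene identifier in the RefSeq table of TAIR10.1. Coordinates are not given because no build is named for the arrays. For each gene the probe set with the highest mean signal was used. Genes were kept at or above the 50th percentile of mean signal, values were floored at the 40th percentile, and a call was made at 1.5-fold. With 1 array per genotype no test was possible.

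All 60 loci may be named by the naming rule, in full the 5 highest and 5 lowest ratios, the highest and lowest paralogue of the 5 proteins with the widest ranges, and the locus under the filter. The genes of some of these proteins enter the counts and medians but are not reported here one by one. From each other list the highest and lowest are named. The members and lists were chosen with earlier results of these data known. The division into head and body follows general knowledge of the subunit's structure. The alternatives tried were quantile scaling, loess scaling, median centring, other filters and floors, the mean over probe sets, no s_at or x_at probe sets, 2-fold calls and the mean in place of the median. The steps were tested on simulated data. Python 3.11.15, numpy 2.4.6, pandas 2.3.3, statsmodels 0.14.6 and matplotlib 3.10.9 were used.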

Additional observations from a re-analysis of the deposited data

How the results depend on the processing

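The median log2 ratio of the 40S genes was 0.30 as reported, 0.24 under quantile scaling and 0.25 under loess scaling. It was 0.32 as the mean, and between 0.30 and 0.32 under the other settings. Some of these could not change it: the other floors, the mean over probe sets and leaving out s_at or x_at probe sets. Each kept 40S gene lay above the floor and had a single probe set, never an s_at or x_at one. All genes had a median between -0.02 and 0.00 throughout. The median range among paralogues was 0.24 as reported, 0.19 under quantile scaling and 0.20 under loess scaling. Under quantile scaling 4 loci moved by more than 0.1. They were AT5G35530 (0.13 to 0.02), AT5G27700 (0.20 to 0.08), AT3G02080 (0.23 to 0.13) and AT3G11510 (0.30 to 0.19). The RPS14 loci then ran from 0.14 to 0.26, a range no longer under 0.1. Between 34 and 37 of the 40S genes were above 0 among the 34 to 38 kept, and under quantile and loess scaling all 37 were. With the 7 shared probe sets, a setting chosen after seeing the data, 43 of 44 values were above 0 with a median of 0.30. The same 2 loci, AT3G53890 among them, were past 1.5-fold in every scaling and filter setting, and 0 of the 40S genes at 2-fold. Over all genes, 143 were at least 1.5-fold higher and 141 lower, 163 and 106 under loess scaling, 49 and 38 with a filter at the 75th percentile, where fewer genes were tested (2683), and 32 and 29 at 2-fold. No paired analysis was possible because there is only 1 array for each genotype, and for the same reason no array could be left out. Probe sets shared by paralogues, and the 8 loci with none named, limit which genes could be read.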
